A study of Mus musculus with 18 samples.

Results

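Voltage-gated sodium and calcium channel genes, together with the potassium channel genes, were followed across 3 tissues of young male mice, namely gonadal fat, hypothalamus and liver. Members were chosen by symbol alone, with no measured value. Symbols of the form Kcn with letters and a number were taken for potassium channels, Cacna1, Cacna2d, Cacnb and Cacng for calcium channels, and Scn with a number and the letter a or b for sodium channels. There were 131 such genes among 23904 gene names found in the tables of all 3 tissues, namely 92 potassium, 26 calcium and 13 sodium channel genes, which fell into 15 families. All animals were C57BL/6 male offspring aged 3 weeks. Dams of the exposed group were given BPA (bisphenol A, a plastic monomer with estrogenic action) in corn oil at 5 mg/kg/day by daily oral gavage from day 1 to day 20 after conception, and dams of the control group, titled WT in the labels, received corn oil alone. The pups came from 4 BPA litters and 3 vehicle litters, and each tissue was represented by 3 RNA samples of either group, 18 in all. The column headings of the expression tables give a tissue and a number that occurs in no sample label, so a column could be assigned to its tissue but not to a treatment. BPA and vehicle are therefore not compared here. The 6 columns of a tissue mix both treatments, and the spread between them includes whatever the treatment and the litters contributed. No label says which samples shared an animal.

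Ion channels of these families are pores in the cell membrane that open with voltage, with calcium or at rest, and they set the resting potential and the firing of nerve, muscle and gland cells. A pore is built from pore subunits (Scn with the letter a, Cacna1, and the Kcna to Kcnd, Kcnq, Kcnh, Kcnj, Kcnk, Kcnn and Kcnma genes). Auxiliary subunits (Scn with the letter b, Cacnb, Cacna2d, Kcnab, Kcne, Kcnip and Kcnmb) adjust its trafficking and gating. In brain, sodium and calcium channels carry excitation and transmitter release, potassium channels end it, and the inward rectifiers of glia clear potassium from the extracellular space.

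Levels are the authors' FPKM (fragments scaled by transcript length and by the mapped fragments of the library), summed over the transcript models of a gene name. FPKM is scaled within each library and each tissue was assembled separately, so levels set across tissues depend on that scaling, and the sequencing depth is unknown. An exact 0 need not mean that RNA was absent: of 35 housekeeping genes, a list drawn up after zeros among the channel genes had been seen, 7 were listed at 0 in every adipose column, 11 in every hypothalamus column and 12 in every liver column. Huwe1 and Dync1h1 were listed at 0 in all 18 columns. A gene is therefore said to be listed at 0, and a fold difference is given, unless stated otherwise, only where all columns of both tissues were above 0. The tissue labels were checked against marker genes. All 8 hypothalamic neuron markers were above 0 in every hypothalamus column, 4 of 5 adipocyte markers in every adipose column and 5 of 5 hepatocyte markers in every liver column. Some columns stood apart. Epididymal markers, from the organ that gonadal fat surrounds, summed to 3102, 899 and 2686 FPKM in the adipose columns numbered 03, 10 and 41 and to at most 0.459 in the other adipose columns. In the hypothalamus column numbered 25, thalamic neuron markers summed to 181 FPKM, against 13.4 to 80.6 in the others, and hypothalamic neuron markers to 772, against 1026 to 1398. Choroid plexus markers summed to 660 in the hypothalamus column numbered 03 and to 7.67 to 13.1 in the others. In the liver column numbered 28 hepatocyte markers summed to 4589 FPKM, against 34463 to 48747 in the others. Most of that gap was albumin (Alb), at 1112 against 30775 to 41280. Apoa1, at 1317 against 1875 to 4020, and Serpina1a, at 633 against 741 to 2063, were also lowest in column 28. Without Alb the marker sum was still lowest there, at 3478 against 3688 to 7468. Tat was highest in column 28, at 692, and Cps1, at 835, stood inside the range of the others.

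The hypothalamus held by far most of the channel gene RNA. The members summed to 1043 to 1276 FPKM over the hypothalamus columns, with a median of 1110. The adipose columns gave 51.1 to 126 (median 72.2) and the liver columns 16.6 to 20.7 (median 18.7), and no column of one tissue overlapped those of another. As a share of the FPKM of all gene names this was 0.461% to 0.522% in hypothalamus, at most 0.0617% in adipose and at most 0.007% in liver. Every column was above 0 for 87 members in hypothalamus, 21 in adipose and 6 in liver, and every column was listed at 0 for 26, 66 and 107. There were 20 members listed at 0 in all 18 columns. These are whole tissues, and fewer cells of a type and less RNA per cell cannot be told apart.

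**Figure D1:**
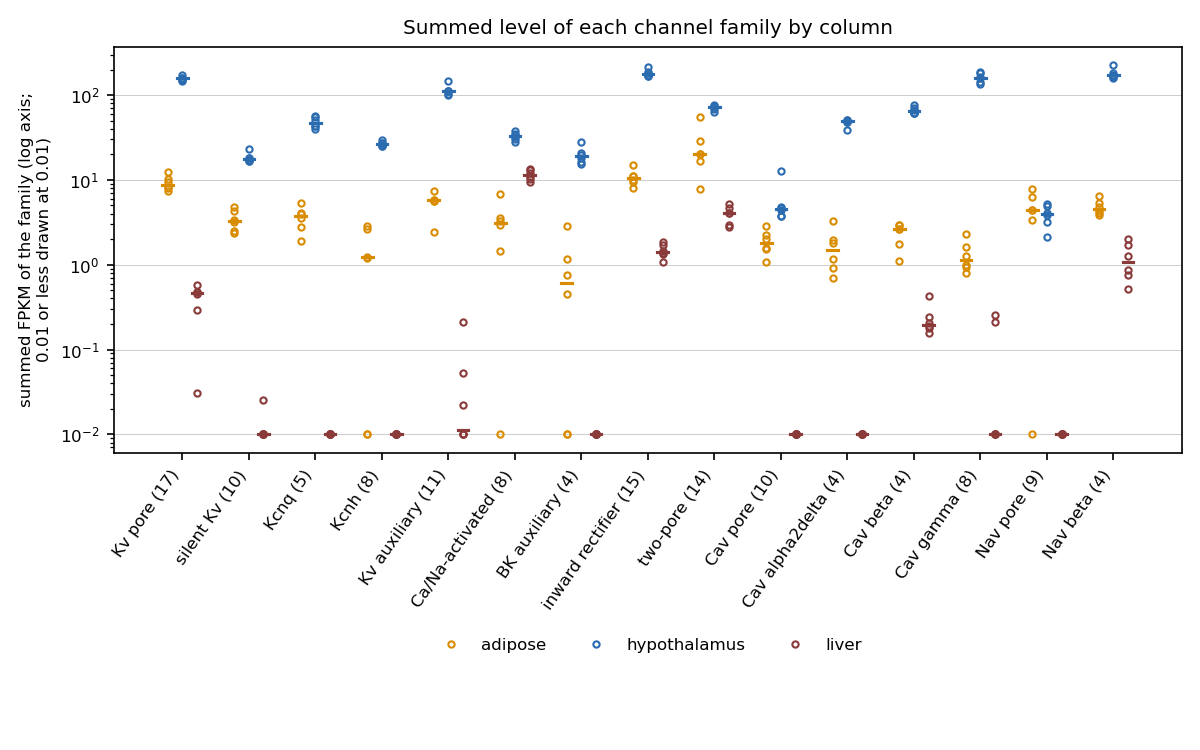
Summed FPKM of each channel family (x axis, number of members in brackets) in each of the 6 columns of adipose, hypothalamus and liver (circles; short bars are medians of 6 columns), on a log axis with values of 0.01 or less drawn at 0.01. The hypothalamus circles lie above those of both other tissues in 14 of the 15 families, and the sodium channel pore family (Nav pore) is the exception, with adipose columns up to 7.73 FPKM.

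The tissues were compared by limma on log2(FPKM + 0.1), with Benjamini-Hochberg adjustment over all 13649 gene names whose mean FPKM over the 18 columns was at least 0.5. A gene was called at an adjusted p under 0.05 and a log2 difference of at least 1. Of the members, 78 passed that filter on low values, so the calls concern 78 genes and not all 131. Against adipose, 67 were called higher in hypothalamus, 5 higher in adipose and 6 not called, where 41.9% of all tested names were called higher in hypothalamus and 17.0% higher in adipose. Against liver, 72 were called higher in hypothalamus, 2 higher in liver and 4 not called, beside 52.9% and 14.4% of all tested names. Between adipose and liver, 33 were called higher in adipose, 6 higher in liver and 39 not called, beside 33.2% and 14.7%. The median log2 difference of the 78 members was 4.93 for hypothalamus minus adipose, 6.06 for hypothalamus minus liver and 0.93 for adipose minus liver. Over all tested names the medians were 0.72, 1.23 and 0.37, and the folds below are given also relative to these. A scaling by median-of-ratios moved these medians to 0.15, 0.51 and 0.22, and the share of all calls that were higher in the first tissue from 71.1%, 78.6% and 69.3% to 56.5%, 65.4% and 64.5%. Quantile normalization put those shares at 47.6%, 50.6% and 52.8%. Over all 131 members, with no filter, every hypothalamus column lay above every adipose column for 77 (28.2% of all 23904 names) and below for 5 (10.2%). Every hypothalamus column lay above every liver column for 83 (35.3%) and below for 2 (9.78%), and every adipose column above every liver column for 19 (17.9%) and below for 2 (9.26%).

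Zeros carry much of these calls. A tissue listed at 0 in all its columns adds no spread to the shared variance, and its fitted difference depends on the 0.1 added. Only 18 members were above 0 in every column of hypothalamus and adipose. When only such names were tested, an alternative chosen after seeing the data, 12 of the 18 were called higher in hypothalamus and 3 higher in adipose (36.3% and 13.5% of 9299 names). For hypothalamus and liver 5 members were left, with 2 and 1 called (42.6% and 13.3% of 8085 names), and for adipose and liver 3 members, with 2 called higher in adipose and 0 in liver (22.2% and 14.9% of 7998 names).

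**Figure D2:**
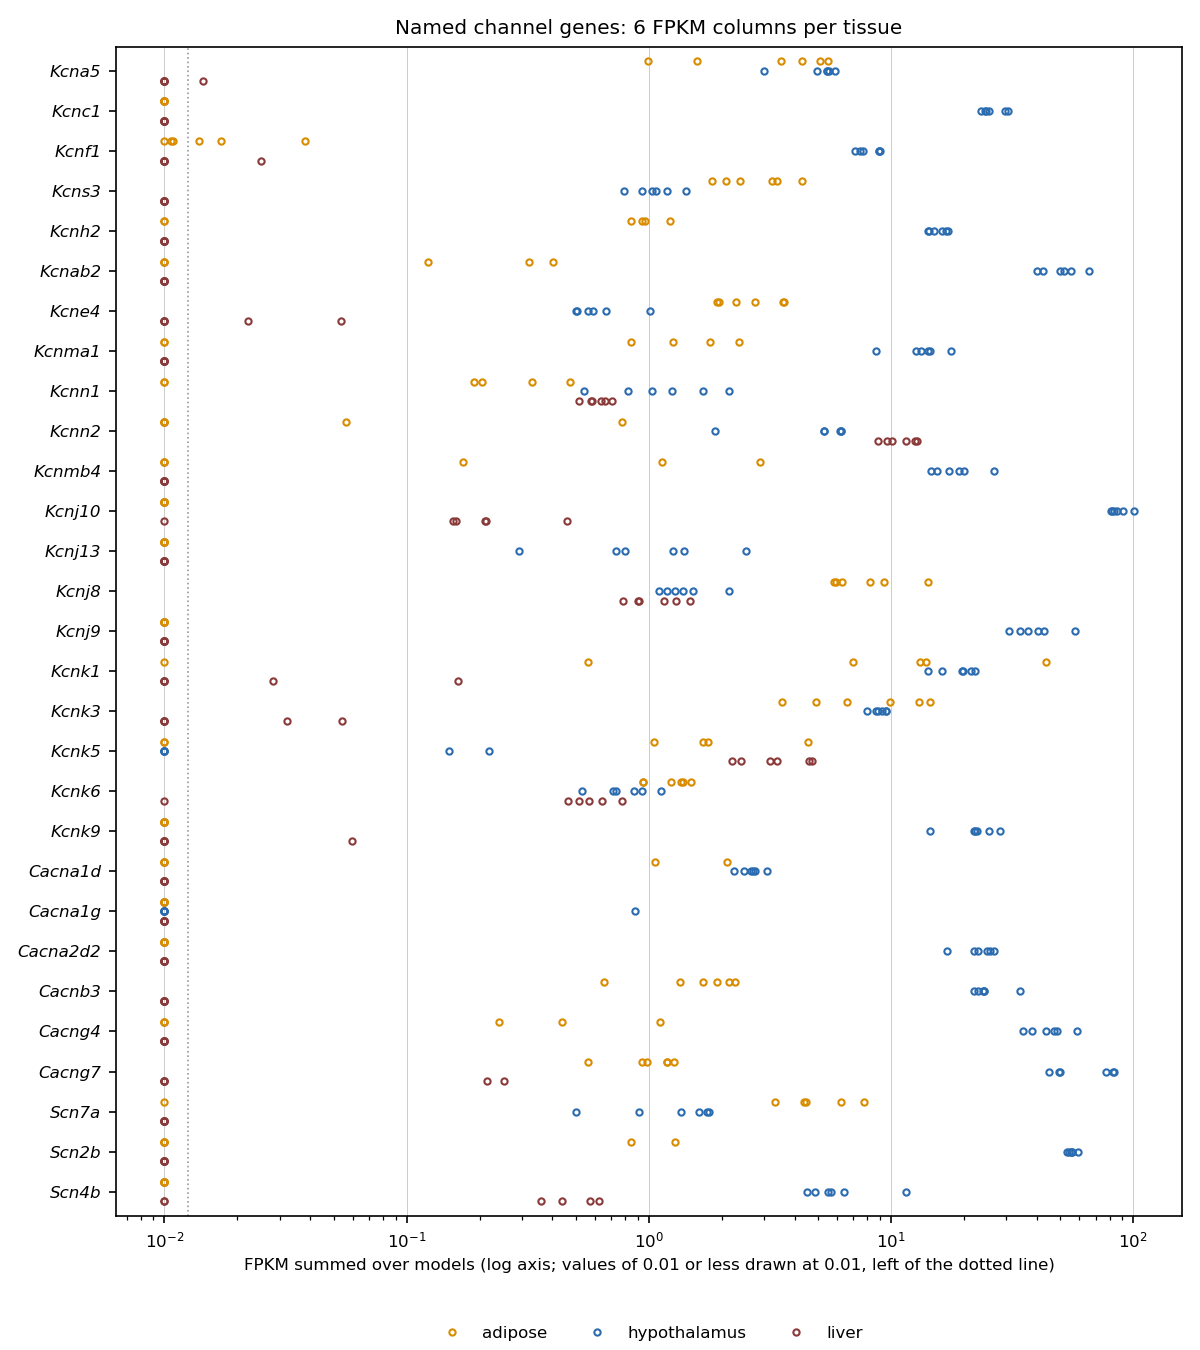
FPKM of 29 named channel genes (rows, ordered by family) in the 6 columns of each tissue (circles), on a log axis with values of 0.01 or less drawn at 0.01, left of the dotted line. For most rows the hypothalamus circles stand to the right, with Kcnj10 up to 100.4 FPKM, while Kcnj8, Kcns3 and Kcne4 lie highest in adipose and Kcnn2 in liver.

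The inward rectifiers were led by Kcnj10, the potassium channel through which astrocytes and oligodendrocytes take up potassium (chromosome 1, 172341123 to 172419880 on mm10, plus strand). Its hypothalamus columns numbered 03, 13, 15, 25, 28 and 42 held 80.8, 81.5, 85.6, 100.4, 91.2 and 83.3 FPKM. It was listed at 0 in all 6 adipose columns and reached at most 0.46 in liver. Kcnj9, a neuronal subunit of the channels that G proteins open, held 40.4, 34.0, 42.8, 57.6, 36.8 and 30.7 in the same order and was listed at 0 in every adipose and liver column. Its neuronal partners Kcnj3 (12.8 to 23.9) and Kcnj6 (2.27 to 5.36) were above 0 in every hypothalamus column as well. Kcnj11, the pore of the ATP-sensitive channel of neurons and beta cells, held 6.19 to 6.60 in hypothalamus and 0.02 to 0.68 in adipose. In log2 units that is 4.75 (SE 0.36; 4.03 above the median of all names; limma, Benjamini-Hochberg adjusted p = 1.46e-09). Kcnj16, found with Kcnj10 in glia, was 3.65 higher in hypothalamus than in adipose (SE 0.62; 2.93 above the median; limma, adjusted p = 4.03e-05). Of the 15 inward rectifiers 11 were tested against adipose, with 10 called higher in hypothalamus and 1 higher in adipose, beside 41.9% and 17.0% of all tested names.

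Kcnj13 was far lower. It encodes an inward rectifier of epithelia such as choroid plexus (chromosome 1, 87384025 to 87397629, minus strand). The hypothalamus columns 03, 13, 15, 25, 28 and 42 held 2.53, 1.26, 0.80, 0.29, 0.73 and 1.40 FPKM, and all adipose and liver columns were listed at 0. The highest value stood in the column numbered 03, where the choroid plexus markers summed to 660 FPKM. Of that sum 646 was Ttr, which encodes the thyroid hormone carrier transthyretin. Folr1 was listed at 0 in all hypothalamus columns, and the other 6 markers were highest in column 03 as well, such as Kl at 3.95 against 0.58 to 1.43 and Sostdc1 at 2.65 against 0.83 to 1.08. Column 03 was also the only hypothalamus column with Kcne2, a potassium channel subunit of choroid plexus and stomach, at 0.96. Column 25, with the lowest Kcnj13, had the highest marker sum of the other 5 columns with Ttr (13.1) and the lowest without it, at 4.06 against 5.02 to 5.56. That second sum was taken after the values were seen. Its mean stood below the filter on low values, so no test was made, and the part of choroid plexus in its level was not tested.

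The proximal promoters of 4 inward rectifier and background channel genes are shown because each shows a different pattern: Kcnj10 was high in hypothalamus, Kcnj13 gave the low hypothalamic signal just described, Kcnj8 had its highest mean in adipose tissue and Kcnk5 in liver. Each is the 250 bases before the start in RefSeq's table of GRCm38.p6 (the assembly called mm10), read on the gene's strand. They lie at chr1:172340960-172341209 (plus), chr1:87394730-87394979 (minus), chr6:142571615-142571864 (minus) and chr14:20181783-20182032 (minus). The Kcnj13 stretch lies wholly inside the span given above, which covers the models of all 3 tissues. It thus belongs to another start than the outermost one of those models. Capitals mark TATAAA, the core of the TATA box, and GGGCGG, known as the GC box, searched on both strands, with no overlap between the motifs shown.
Kcnj10: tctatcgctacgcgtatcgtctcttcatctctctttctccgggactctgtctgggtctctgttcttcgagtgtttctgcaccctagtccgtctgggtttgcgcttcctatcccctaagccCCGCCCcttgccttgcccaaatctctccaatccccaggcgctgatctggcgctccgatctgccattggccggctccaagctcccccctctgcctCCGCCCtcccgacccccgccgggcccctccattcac
Kcnj13: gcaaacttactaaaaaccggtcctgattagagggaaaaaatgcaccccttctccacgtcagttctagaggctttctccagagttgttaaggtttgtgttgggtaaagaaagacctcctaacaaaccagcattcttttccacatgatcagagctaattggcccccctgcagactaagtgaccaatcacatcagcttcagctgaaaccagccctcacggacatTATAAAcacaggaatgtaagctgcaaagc
Kcnj8: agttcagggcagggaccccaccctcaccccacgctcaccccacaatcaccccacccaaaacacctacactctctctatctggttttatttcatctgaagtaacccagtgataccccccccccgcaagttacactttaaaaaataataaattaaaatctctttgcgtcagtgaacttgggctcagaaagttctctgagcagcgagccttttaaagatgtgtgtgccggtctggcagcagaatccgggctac
Kcnk5: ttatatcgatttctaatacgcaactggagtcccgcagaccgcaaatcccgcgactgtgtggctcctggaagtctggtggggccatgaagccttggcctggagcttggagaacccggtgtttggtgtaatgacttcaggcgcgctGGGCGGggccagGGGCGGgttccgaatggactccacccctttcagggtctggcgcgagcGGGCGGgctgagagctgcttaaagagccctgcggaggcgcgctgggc
Kcnj13 holds 1 TATA box match, Kcnj10 holds 2 GC box matches and Kcnk5 holds 3, and Kcnj8 holds none of either. Of the members, 96 had a promoter in the table, 131 promoters in all because some genes have several starts. Over the full window of 300 bases, GGGCGG occurred in 45.8% of the members' promoters and in 35.7% of all 32851, and TATAAA in 4.58% and 13.6%. The members' promoters had a median of 9 CpG dinucleotides, against 7 in all. A match describes letters and is not a bound site.

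The voltage-gated potassium channel pores (Kcna to Kcnd) summed to 147 to 172 FPKM in hypothalamus, 7.44 to 12.2 in adipose and at most 0.573 in liver. Kcnc1, a channel that lets interneurons fire fast, held 24.5, 23.5, 24.7, 29.7, 30.4 and 25.4 FPKM over the hypothalamus columns and was listed at 0 in every column of the other tissues. Kcnc2, of the same fast class, held 8.97 to 25.7 in hypothalamus and 0.27 to 1.30 in adipose, a log2 difference of 4.41 (SE 0.27; 3.68 above the median of all names; limma, Benjamini-Hochberg adjusted p = 5.56e-11). Kcna2, the axonal delayed rectifier, was 4.52 higher on the log2 scale (SE 0.22; 3.80 above the median; limma, adjusted p = 1.97e-12). Kcna5 differed from the other pores. This delayed rectifier of heart, vascular muscle and glia held 5.44, 5.88, 5.44, 2.98, 5.53 and 4.95 in hypothalamus and 1.59, 4.28, 5.48, 5.09, 0.99 and 3.53 in the adipose columns numbered 03, 10, 15, 25, 41 and 42. The ranges overlapped, and the log2 difference of 0.71 (95% confidence interval 0.0038 to 1.41) was not called by limma (Benjamini-Hochberg adjusted p = 0.0636). Of the 17 pore genes 13 were tested, and against adipose 12 of them were called higher in hypothalamus and 0 higher in adipose, beside 41.9% and 17.0% of all tested names.

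Among the Kcnq and Kcnh genes, Kcnq3, a subunit of the neuronal M-current that transmitters switch off, held 13.9 to 30.4 FPKM over the hypothalamus columns and was listed at 0 in every adipose and liver column. Kcnh2, whose channel ends the cardiac action potential, held 14.3 to 17.2 in hypothalamus and 0 to 1.22 in adipose. The silent subunits, which form channels only with another Kv subunit, included Kcnf1 at 7.11 to 8.99 in hypothalamus and at most 0.04 in adipose. Kcns3 was higher in adipose, with 1.82, 2.38, 3.38, 2.08, 3.23 and 4.27 against 0.79 to 1.43 in hypothalamus. Its log2 difference, hypothalamus minus adipose, was -1.29 (SE 0.19; -2.02 relative to the median of all names; limma, Benjamini-Hochberg adjusted p = 5.90e-06).

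Auxiliary potassium channel subunits were mostly hypothalamic. Kcnab2, which attaches to Kcna channels in the cytoplasm, held 40.1 to 65.5 FPKM there, with a median of 50.8, and at most 0.40 in adipose. Kcnip4, a calcium-binding partner of Kcnd channels, was 5.20 higher in hypothalamus than in adipose on the log2 scale (SE 0.31; 4.48 above the median of all names; limma, Benjamini-Hochberg adjusted p = 4.35e-11). Kcne4, a small subunit that inhibits Kv channels, was an exception. Its adipose columns held 2.76, 2.28, 3.60, 3.59, 1.95 and 1.91 and its hypothalamus columns 0.50 to 1.02, with no overlap, a log2 difference of -1.90 (SE 0.20; -2.62 relative to the median; limma, adjusted p = 1.27e-07). Of the large calcium-activated channel, the pore gene Kcnma1 held 8.67 to 17.8 in hypothalamus and its neuronal subunit Kcnmb4 held 14.6 to 26.6. In adipose both were listed at 0 in the columns numbered 15 and 42 and reached 2.37 and 2.87 in column 03.

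Sodium channel genes were listed with high auxiliary and low pore levels. Scn2b, a beta subunit that binds the pore covalently, varied least among the leading genes, with 53.4, 54.2, 56.0, 59.1, 55.2 and 56.2 in hypothalamus. The 4 beta subunits summed to 160 to 223 FPKM in hypothalamus. The 9 pore genes summed to 2.10 to 5.15, and 7 of them were listed at 0 in all 18 columns. They include Scn1a, Scn3a and Scn8a, known as brain sodium channels, and Scn10a and Scn11a, known from sensory neurons. Scn2a1, the name in these tables for another brain sodium channel, lies outside the symbol rule and was also listed at 0 in all 18 columns. An exact 0 need not mean absent RNA, so the low pore sum is not read as little pore RNA.

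The only pore genes with values were Scn9a and Scn7a. Scn9a, known from sensory and hypothalamic neurons, held 2.65, 3.15, 2.48, 1.19, 2.47 and 3.38 FPKM in hypothalamus and was listed at 0 elsewhere. Scn7a, an atypical channel that senses sodium in glia of the circumventricular organs, held 0.50, 1.75, 1.61, 0.91, 1.36 and 1.77 in hypothalamus and 7.73, 4.44, 0, 4.38, 3.33 and 6.22 in adipose. Except for the adipose column numbered 15, listed at 0, every adipose column lay above every hypothalamus column, and limma with that column included did not call the difference (Benjamini-Hochberg adjusted p = 0.248).

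Calcium channel genes were listed with the same split between pore and auxiliary genes. In hypothalamus the 4 beta subunits, which bring the pore to the membrane, summed to 62.2 to 76.1 FPKM, the 4 alpha2delta subunits, which the gabapentin drugs bind, to 39.1 to 51.3 and the 8 gamma genes to 136 to 185. The 10 pore genes summed to 3.73 to 12.8. Genes listed at 0 enter that sum too, so it is not read as little pore RNA. Several gamma genes, such as Cacng2, Cacng3, Cacng4 and Cacng8, serve mainly AMPA glutamate receptors, so the gamma sum is not a measure of calcium channels. Cacng7, an auxiliary subunit of AMPA receptors as well, held 44.8, 49.4, 77.6, 82.3, 49.9 and 83.6 in hypothalamus and 0.56 to 1.27 in adipose. The hypothalamus values fell into a lower and a higher group of 3, a split noticed after they were seen. No column can be assigned to a treatment, and the cause of the split was not tested. Cacng7 was 5.84 higher in hypothalamus than in adipose on the log2 scale (SE 0.34; 5.12 above the median of all names; limma, Benjamini-Hochberg adjusted p = 3.55e-11). Among the beta subunits, Cacnb3 was 3.92 higher (SE 0.22; 3.20 above the median; limma, adjusted p = 1.74e-11) and Cacnb4 4.85 higher (SE 0.20; 4.13 above the median; limma, adjusted p = 2.60e-13). Cacna2d2 held 17.0 to 26.7 in hypothalamus and was listed at 0 in every adipose and liver column.

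Cacna1g, a T-type channel that gives thalamic neurons their burst firing (chromosome 11, 94408391 to 94474381, minus strand), was listed at 0 in 17 of the 18 columns. The exception was the hypothalamus column numbered 25, at 0.88 FPKM. That is the column with the highest sum of thalamic neuron markers (181 FPKM, 6 of 6 markers above 0 in every hypothalamus column). The second highest, column 15 at 80.6, had Cacna1g at 0, and the part of thalamic tissue in the value was not tested. The hypothalamus assembly holds 24 models of Cacna1g, against 6 in adipose and 4 in liver, so models of the gene were listed without an FPKM above 0. Cacna1b, the N-type channel of nerve terminals, was likewise above 0 only in hypothalamus column 15, at 9.62. Cacna1a, the P/Q-type channel of nerve terminals, with 14 models in hypothalamus, and Cacna1e, the R-type channel, with 11, were listed at 0 in all 18 columns, as were Cacna1f and Cacna1i. The highest of the pore genes by mean was Cacna1d, an L-type channel of pacemaking neurons, at 2.25 to 3.07 in hypothalamus. Cacna1c, the L-type channel of heart and vascular muscle, held 0.75 to 2.03 in adipose and 0 to 0.34 in hypothalamus, with no overlap.

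The pore genes listed at 0 are long genes. Of the 27 members whose GENCODE transcript with most exons had more than 20, 11 (40.7%) were listed at 0 in every hypothalamus column, against 15 of 104 members (14.4%) with up to 20 exons. All 11 were sodium or calcium channel pores. The share did not rise steadily with exon number. Of the 16 members with more than 30 exons, 4 were listed at 0 in every hypothalamus column, a smaller share than above 20. The sodium channel pores have 24 to 28 exons. Cacna2d1 and Cacna2d2, with more than 30 exons, were above 0 in every hypothalamus column. Among all protein-coding genes of GENCODE the shares were 23.1% above 20 exons and 30.4% over all. Of 12 members with 10 or more models in the hypothalamus assembly 4 were listed at 0 there, where 5.7% of 648 protein-coding genes with as many models were. Whether these zeros reflect failed estimates for long genes with many models was not tested.

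**Figure D3:**
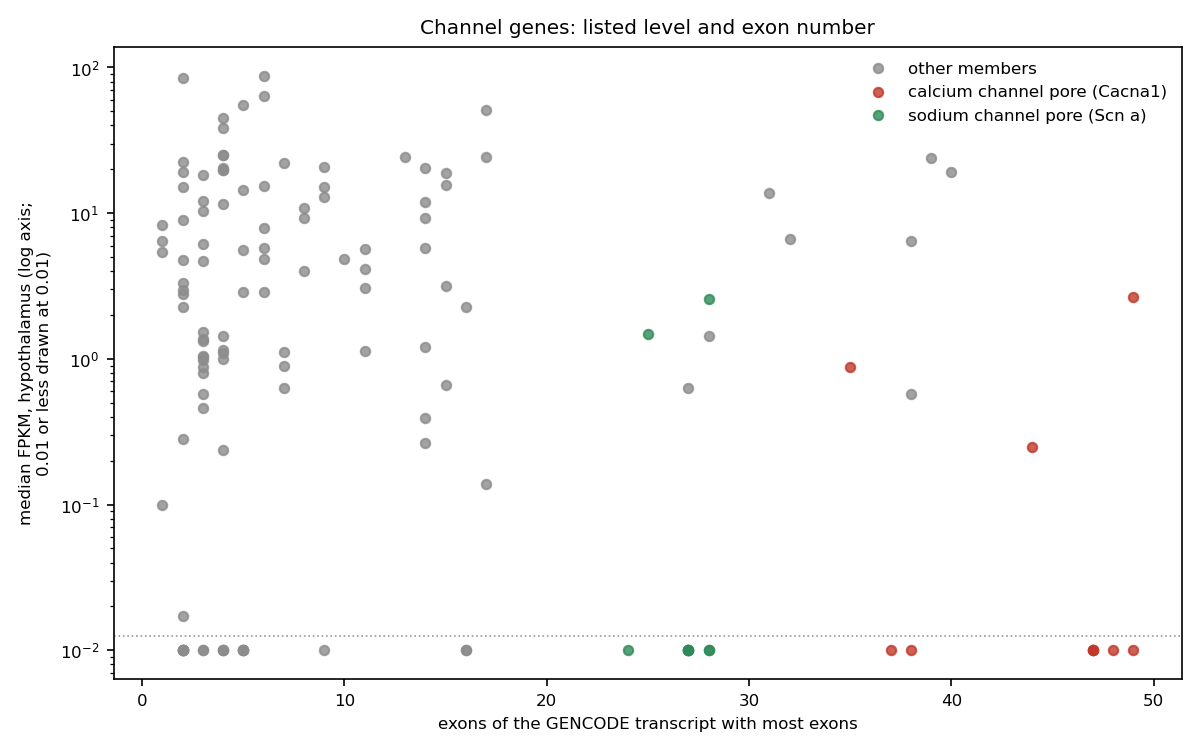
Median FPKM over the 6 hypothalamus columns (log axis, values of 0.01 or less drawn at 0.01 under the dotted line) against the number of exons for each channel gene (points; calcium channel pores in red, sodium channel pores in green). The pore genes stand on the right, with 11 of those 19 listed at 0 in every hypothalamus column and Cacna1b, Cacna1c and Cacna1g, above 0 in 1 or 2 columns, at a median of 0 too.

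Adipose tissue had its own short list of channels. Kcnj8, the pore of the ATP-sensitive channel of vascular muscle and pericytes, held 5.80, 8.16, 14.2, 6.29, 5.95 and 9.37 FPKM in the adipose columns numbered 03, 10, 15, 25, 41 and 42. Every adipose column lay above the hypothalamus (1.10 to 2.14) and liver columns (0.78 to 1.48). The log2 difference, hypothalamus minus adipose, was -2.40 (SE 0.22; -3.13 relative to the median of all names; limma, Benjamini-Hochberg adjusted p = 2.02e-08), and adipose minus liver it was 2.78 (SE 0.22; 2.41 above the median; limma, adjusted p = 4.49e-09). Hypothalamus and liver were not called different (log2 difference 0.37, 95% confidence interval -0.10 to 0.84; limma, adjusted p = 0.131). Abcc9, the usual sulfonylurea receptor partner of Kcnj8, was listed at 0 to 0.71 in adipose and at 0 in the other tissues. Kcnk3, an acid-sensitive background channel known to oppose thermogenesis in mouse brown fat, held 4.92, 13.0, 14.4, 9.92, 3.55 and 6.56 in adipose. Its hypothalamus columns held 7.93 to 9.56 and fell within that range, with a log2 difference of 0.20 (95% confidence interval -0.38 to 0.78; limma, adjusted p = 0.52).

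The adipose columns did not move alike for these genes. Kcnk3 and Kcna5 were lowest in the columns numbered 03 and 41, which also held the lowest sums of endothelial markers (63.8 and 49.1 FPKM, against 154 to 218 in the others; 3 of 4 markers above 0 in every column, Tie1 at 0 in all). The pericyte markers summed to 94.5 and 108 in those columns and to 126 to 202 in the others. Kcnj8 was highest in column 15, where both sums were highest, at 218 and 202. Smooth muscle markers went the other way, with their highest sums in columns 03 and 41. These were 305 and 303 FPKM, against 69.9 to 260 in the others. The part of vessel cells in these levels was not tested.

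Another group of members followed the epididymal markers in adipose. Kcnk1, a background potassium channel of kidney, brain and epithelia, had the highest adipose mean of all members, but its columns 03, 10, 15, 25, 41 and 42 held 43.7, 13.2, 0.56, 7.00, 13.9 and 0 FPKM. The epididymal marker sums in the same order were 3102, 899, 0.459, 0.206, 2686 and 0. Kcnq1, an epithelial and cardiac channel picked after its values were seen, held 4.22, 0.90, 0, 0, 2.32 and 0.10. Kcnk5 held 4.52, 1.05, 0, 1.75, 1.68 and 0, and Kcnn4, an epithelial and blood cell channel also picked afterwards, held 2.42, 1.20, 0, 1.90, 0.96 and 0. Column 25 broke the parallel, with Kcnk1, Kcnk5 and Kcnn4 above 0 and an epididymal sum near 0. Members above 0 numbered 55, 43, 34, 43, 50 and 30 in the same order, while all gene names above 0 numbered 13837, 13273, 12420, 12860, 13926 and 12299. The part of epididymal tissue in these levels was not tested, and without columns 03, 10 and 41, a setting chosen after seeing the data, 26 members in place of 33 were called higher in adipose than in liver. Against hypothalamus 4 in place of 5 were then higher in adipose, Kcnk5, listed at 0 in 4 hypothalamus and 2 adipose columns, being lost. Fewer adipose columns remain in that setting, and its share of all names is not given. These 2 counts are therefore not read as a trait of the members.

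**Figure D4:**
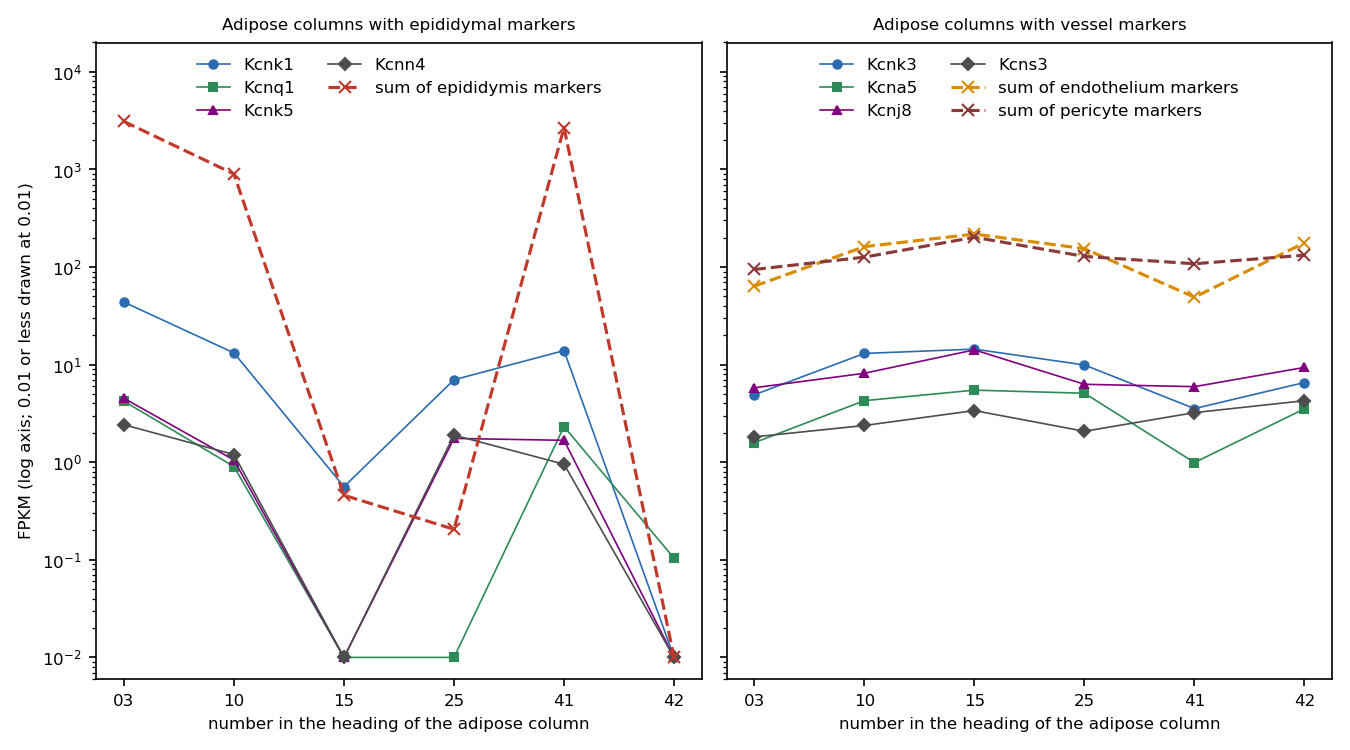
FPKM in the 6 adipose columns (x axis, heading numbers, which have no order) on a log axis with values of 0.01 or less drawn at 0.01, for Kcnk1, Kcnq1, Kcnk5 and Kcnn4 with the summed epididymal markers (left, dashed) and for Kcnk3, Kcna5, Kcnj8 and Kcns3 with the summed endothelial and pericyte markers (right, dashed). Kcnk1 runs from 43.7 in column 03 to 0 in column 42, whereas the genes on the right stay between 0.99 and 14.4.

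Liver had few channel genes above 0. Kcnn2, a small-conductance calcium-activated channel (chromosome 18, 45268647 to 45685883, plus strand), held 12.5, 9.64, 12.9, 8.85, 10.1 and 11.5 FPKM in the liver columns numbered 03, 13, 15, 25, 28 and 42, the highest of all members there. The hypothalamus columns held 5.27, 6.21, 6.23, 6.15, 5.27 and 1.88, all below every liver column, and the adipose columns 0 to 0.78. The log2 difference, hypothalamus minus liver, was -1.15 (SE 0.45; -2.38 relative to the median of all names; limma, Benjamini-Hochberg adjusted p = 0.0271). Without the hypothalamus column numbered 42 the difference was -0.89 and no longer called, though the remaining hypothalamus columns still lay below every liver column. With 0.01 in place of 0.1 added to FPKM the difference was -1.17 and not called either (limma, adjusted p = 0.208). Kcnk5, an acid-sensitive background channel of epithelia (chromosome 14, 20140058 to 20181782, minus strand), held 2.20, 4.74, 4.57, 2.41, 3.37 and 3.16 in liver and at most 0.22 in hypothalamus. Its adipose columns overlapped the liver range, with 4.52 in column 03. The call higher in liver than in adipose (limma, adjusted p = 0.0231) was lost when adipose column 15 or 42, both listed at 0, was left out. In the column numbered 28, where hepatocyte markers summed to 4589 FPKM, Kcnn2 at 10.1 and Kcnk5 at 3.37 stood inside the range of the other liver columns.

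Kcnn1, a neuronal relative of Kcnn2, held 0.52 to 0.71 in liver and 0.54 to 2.14 in hypothalamus and was not called (log2 difference 0.80, 95% confidence interval -0.06 to 1.66; limma, Benjamini-Hochberg adjusted p = 0.0782). Besides Kcnn2 and Kcnk5, the members called higher in liver than in adipose included Kcnj10, Kcnn1 and Scn4b, none of which exceeded 0.71 FPKM in any liver column. Oligodendrocyte markers summed to 9.27 FPKM in the liver column numbered 15, against 0.39 to 1.06 in the others, and the neuron markers to 4.86 against 1.41 to 2.03. That column also held the highest liver value of Kcnj10, at 0.46, of Kcnf1, at 0.03, and of Kcnk9, a neuronal background channel, at 0.06. Whether brain RNA contributed to that column was not tested.

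Within the hypothalamus the channels varied between columns. Among the 87 members above 0 in every hypothalamus column, column 25 was the highest for 31 (35.6%) and the lowest for 25 (28.7%), while over 12811 gene names it was the highest for 20.8% and the lowest for 30.4%. Kcnc2 held 16.4, 12.3, 16.5, 25.7, 12.6 and 8.97 FPKM in columns 03, 13, 15, 25, 28 and 42. The thalamic marker sums in the same order were 73.8, 31.3, 80.6, 181, 43.2 and 13.4, with the highest and the lowest in the same columns. Scn4b, a beta subunit of fast-firing neurons, was highest in column 25 at 11.5 against 4.49 to 6.37, and Cacnb3 at 34.1 against 22.1 to 24.3. Kcnk9 went the other way, with 14.5 in column 25 against 22.0 to 28.1, and so did Kcna5. Oligodendrocyte markers summed to 5033 FPKM in column 25 and to 2838 to 3455 in the others. The part of tissue from outside the hypothalamus in these values was not tested. Without column 25 the counts were as before, with 67 members called higher in hypothalamus than in adipose and 72 higher than in liver.

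**Figure D5:**
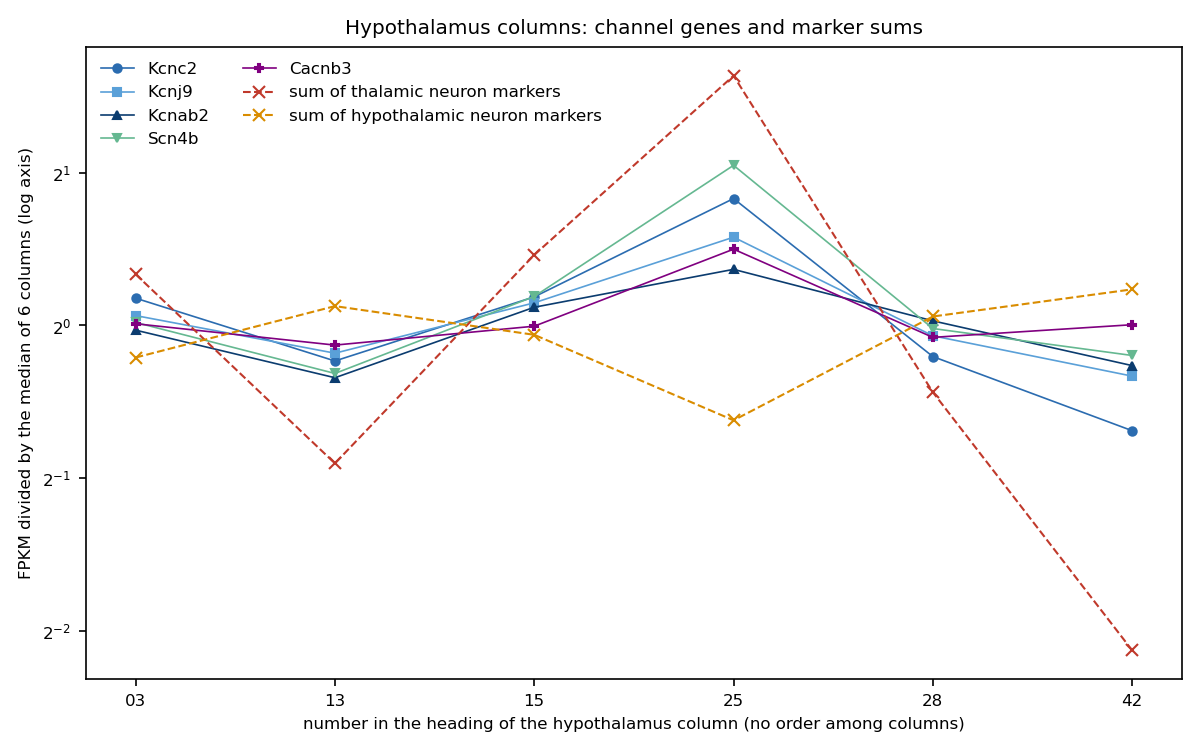
Level of 5 channel genes (solid lines, chosen after their values were seen) and of the summed thalamic and hypothalamic neuron markers (dashed) in the 6 hypothalamus columns (x axis, heading numbers, which have no order), each divided by its median over the columns, on a log axis. All 5 genes and the thalamic sum are highest in column 25, where the hypothalamic neuron sum is lowest at 772 FPKM.

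Genes that work with these channels were mostly called higher in hypothalamus too. Of a list of 50 partner genes outside the symbol rule, 49 were in the tables and 35 passed the filter. Against adipose 27 were called higher in hypothalamus, 3 higher in adipose and 5 not called, where 41.9% and 17.0% of all tested names were called higher in either tissue. Against liver the counts were 30, 0 and 5, beside 52.9% and 14.4%. Between adipose and liver 12 were higher in adipose, a share close to the 33.2% of all tested names, 1 was higher in liver (14.7% of all) and 22 were not called. Dpp6, a partner of Kcnd channels, held 55.1 to 78.2 FPKM in hypothalamus and at most 0.50 in adipose, and the pacemaker channel Hcn2 held 42.6 to 66.1 and was listed at 0 in every adipose column. Nalcn, the sodium leak channel, held 13.3 to 18.4, and Ank2, an ankyrin that anchors channels in the membrane, 24.3 to 39.4. The 3 higher in adipose were Rem1, an inhibitor of calcium channels (1.70 to 12.4 against 0 to 0.27 in hypothalamus), Itpr2, a calcium release channel (6.26 to 10.1 and listed at 0 in every hypothalamus column), and Ano1, a calcium-activated chloride channel (3.44 to 10.3 against 0 to 0.68).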

How the data were processed

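Per the labels' protocols, poly-A RNA of 18 samples was sequenced. The submitters' processing notes name HISAT 0.1.6 (a spliced aligner), StringTie 1.0.4 (a transcript assembler) and the build mm10. Strandedness and annotation are not given in the sources used here, so overlapping genes and close paralogs may exchange reads. The deposited transcript tables, 1 merged assembly per tissue, hold FPKM per model in 6 columns per tissue, per the file headers. These were summed per gene name. Cells that were not numbers, 31 in all, were left out, and none belonged to a channel gene. Depth is unknown, so no counting interval is given.

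Tissues were compared with limma 3.58.1 (R 4.3.3) on log2(FPKM + 0.1) with a trended variance shared by the 3 tissues, over 13649 names with a mean FPKM of at least 0.5, and p-values were adjusted by Benjamini-Hochberg. A fold on this scale understates the change of low genes. On simulated data with 13649 genes, 93% to 96% of planted log2 differences of 3 and 67% to 68% of those of 1.5 were called between hypothalamus and the other tissues. P-values measure the spread between columns, which mix the treatments. Column numbers recur between tissues, but no label says what they mark.

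Described by value were Cacna1g and Kcnj13, the 8 members with the highest mean per tissue, the 4 largest called differences per comparison and direction, and the highest of each family, and others chosen after their values were seen. Some of these genes enter the counts and sums but are not reported here, which leaves 29 under the rule. Members and lists were chosen with earlier results of these data known. Alternatives were other pseudocounts, filters, scalings and tables, and columns left out.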

Additional observations from a re-analysis of the deposited data

Results flagged for a closer look

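In 64 combinations of a named channel gene and a tissue, the highest or lowest of the 6 columns was compared with the nearest of the others, and 11 stood apart by more than Dixon's critical share of the whole range. Chance gives about 1 in 20 where values vary without zeros. Where all other columns are listed at 0, as for Cacna1g in hypothalamus and Kcnk9 in liver, any value above 0 stands apart by construction, and Kcnf1 and Kcnk1 in liver and Kcnn2 in adipose were also listed at or near 0 in the other columns. Of the 11, 5 were in the hypothalamus column numbered 25. There Scn4b stood at 11.54 FPKM against 4.49 to 6.37 in the other columns and Cacnb3 at 34.09 against 22.1 to 24.3. Kcne4 stood at 1.016 against 0.50 to 0.67 and Cacna1g at 0.875 against 0 in the others, while Kcna5 was low at 2.983 against 4.95 to 5.88. Kcnn2 was low in the hypothalamus column numbered 42, at 1.878 FPKM against 5.27 to 6.23. In the adipose column numbered 03, Kcnk1 stood at 43.73 FPKM against 0 to 13.9 and Kcnn2 at 0.777 against 0 to 0.056. The liver values that stood apart were above the other columns but small, with Kcnk1 at 0.163 FPKM in column 42 against 0 to 0.0281, Kcnf1 at 0.0251 in column 15 against 0 to 0.0057 and Kcnk9 at 0.0596 in column 15 against 0.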

How the results depend on the processing

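Of 65 called differences of named genes, 48 kept direction and call under every alternative in which they were tested. Of 1941 recomputed values 1886 kept both, 51 kept the direction only, 2 fell to a difference of 0 and 2 reversed. Those at 0 were Kcnmb4 between adipose and liver, without the adipose columns with epididymal markers and without the 5 columns named below. The reversals came under quantile normalization, with Kcne4 at -0.40 for hypothalamus minus liver and Kcnk6 at -0.0083 for adipose minus liver. Both genes were listed at 0 in some liver columns. With 1 in place of 0.1 added to FPKM both kept their direction, at 0.69 and 0.59, and were not called. The cause of the reversals was not tested. Against adipose, members called higher in hypothalamus (67) numbered 44 with a mean FPKM of at least 2 and 12 with names above 0 in both tissues, and those higher in adipose (5) numbered 3 with 1 added to FPKM, 9 with no filter, 1 with a mean of at least 2 and 3 with names above 0. Against liver, those higher in hypothalamus (72) numbered 46 with a mean of at least 2 and 2 with names above 0, and those higher in liver (2) numbered 1 with 0.01 added, 1 with a mean of at least 2, 5 under quantile normalization and 1 with names above 0. Between adipose and liver, those higher in adipose (33) numbered 14 with 1 added, 20 under quantile normalization and 2 with names above 0, and those higher in liver (6) numbered 2 with 1 added, 3 with a mean of at least 2 and 0 with names above 0. The stricter filter and the demand for values above 0 test fewer genes by construction. For the other settings the cause was not tested. Under quantile normalization, of all 13649 names, 4063 in place of 1970 were called higher in liver than in hypothalamus. Between adipose and liver, 3155 names in place of 4534 were called higher in adipose. For the remaining settings, except names above 0 in both tissues, shares of all names are not given. Their counts are therefore not read as a trait of the members. With single columns left out, the member counts in the order given above ranged over 67 to 68, 5 to 6, 72 to 73, 1 to 2, 30 to 36 and 5 to 6, and the 1 came without hypothalamus column 42. Without the 3 adipose columns with epididymal markers, hypothalamus column 25 and liver column 28 together, a setting chosen after seeing the data, they were 68, 4, 72, 2, 26 and 5. With the column number as a replicate block they were 68, 4, 72, 2, 28 and 6. Correlations of the deviations of columns with the same number ran from -0.0212 to 0.0356, so the number was not taken to pair the samples. In 3 of 4 pairs of hypothalamus and adipose columns (03, 15 and 42) each column correlated best with its own number, a hint from the data and not the design, as against 0 of 6 pairs of hypothalamus and liver and 0 of 4 of adipose and liver. Depth is unknown, and zeros limit most comparisons with liver.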
